A study of Homo sapiens with 6 samples.

Results

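The genes described are 38 that encode parts and helpers of the proteasome in HT-29, a human colon adenocarcinoma line. They were chosen by symbol, as noncatalytic subunits of the 20S core, subunits of the 19S regulator, assembly factors, and the alternative caps with their inhibitor. The catalytic subunits were left out. All 38 of the 38 passed the filter on low values, among 10370 genes that did so of 19775 with a probe set of their own. Their expression was compared between BR100, BR200 and wild type, with 2 arrays for each variant. Per the labels, the bortezomib-resistant variants are clonal isolates, taken by limiting dilution in constant bortezomib from cells that had grown for months in rising concentrations of the drug. The same treatment text stands on the wild type samples as well. It gives neither the concentration under which BR200 was isolated nor whether the drug was present at harvest. Each resistant variant is thus a clonal line, and the labels give no separate cultures for the arrays of a variant, so every p-value here measures the spread between these arrays, which may be technical. Every variant had 1 array labelled with the 3′ IVT Express kit, starting from 100 ng of RNA, and 1 labelled with the One-Cycle kit, starting from 3 ug.

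The proteasome is the large protease that degrades proteins tagged with ubiquitin. Its 20S core is a barrel of stacked rings, with alpha subunits forming the gated outer rings and beta subunits the inner rings, some of which carry the protease sites that bortezomib blocks. The 19S regulator sits on the end of the barrel: a base with a ring of ATPases unfolds substrates, and a lid with ubiquitin receptors binds them and removes the ubiquitin. Dedicated chaperones build the rings and the base, and alternative caps can take the place of 19S. In mammalian cells, loss of proteasome activity is known to raise transcription of the subunit genes together, through the factor NFE2L1, also called NRF1.

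Values are log2 expression per probe set. The lowest value on any array was 2.23, and the probe sets that stand for the members lay between 8.66 and 14.19 on every array. A level is relative to the other genes of its array, levels of different genes were not set against each other, and in pooled RNA the share of cells that express a gene and its RNA per cell cannot be told apart. The number of genes at log2 4 or more was 10063 to 10193 per array. Of 10 colon epithelial markers 7 were above log2 4 on every array, among them EPCAM between 14.63 and 14.97 and KRT20 between 13.93 and 14.75, whereas the intestinal markers CDX2 and CDH17 stood at the lowest value on all 6 arrays and CDX1 did not exceed 2.91. The endothelial markers stayed at or below 2.68, the fibroblast markers other than COL1A1 (between 5.36 and 5.81) at or below 2.40, and PTPRC and CD3E at the lowest value; CD14 lay between 5.33 and 6.76, and LYZ, listed with blood cells, between 14.34 and 14.84. The gap between the 3′ and 5′ probe sets of ACTB, which grows as RNA is shorter or labelled less fully, was 3.03 and 1.86 in BR100, 3.24 and 1.76 in BR200, and 4.22 and 2.99 in wild type (log2, Express array first). The gap was thus larger in wild type within each kit, and its part in the results below was not tested.

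Most of the 38 genes were higher in both resistant clones, by about the same amount in each. Against wild type, 31 of the 38 rose in BR100, 2 fell and 5 were not called, where a call is a Benjamini-Hochberg adjusted p under 0.05 in limma over all genes tested. Of all genes tested, 36.7% rose in BR100 and 31.8% fell. In BR200, 32 of the 38 rose, 3 fell and 3 were not called, against 35.4% and 31.2% of all genes. The median log2 change of the 38 was 0.73 in BR100 and 0.67 in BR200, and that of all genes was 0.04 in either comparison. A change of 2-fold or more upward was seen in 12 members in BR100 and in 9 in BR200, against 13.8% and 13.1% of all genes. Both comparisons use the same wild type arrays, so they are not independent of each other.

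The direction of change was the same with both labelling kits for 36 of the 38 genes in each comparison with wild type. How often this held among all genes tested was not counted, so the 36 cannot be read as many or few. The median change in BR100 was 0.75 with the Express kit and 0.71 with the One-Cycle kit, and in BR200 it was 0.67 and 0.64. Both BR100 arrays lay above both wild type arrays for 30 genes and below them for 2, against 38.3% and 33.7% of all genes. For BR200 this held for 30 and 3, against 36.7% and 32.8%. Without the kit as a block, 23 rose and 1 fell in BR100, and 21 rose and 2 fell in BR200. The share of all genes called without the block was not counted, so the drop may not be particular to these genes. The calls of PSMA7, PSMD3, ADRM1, SEM1, PSMG2, PSMG4 and PSMF1 were then lost in both clones, those of PSMD10 and PAAF1 in BR100, and those of PSMA1, PSMA4, PSMB1, PSMC4 and PSMG3 in BR200. The same 30 genes were called higher in both clones, and PSMD2 and PSMF1 were called lower in both. The share of all genes called alike in both clones was not counted. PAAF1 was called in BR100 alone, PSMB1, PSMG3 and PSMD8 in BR200 alone, and PSMD5 and PSMD9 in neither.

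**Figure D1:**
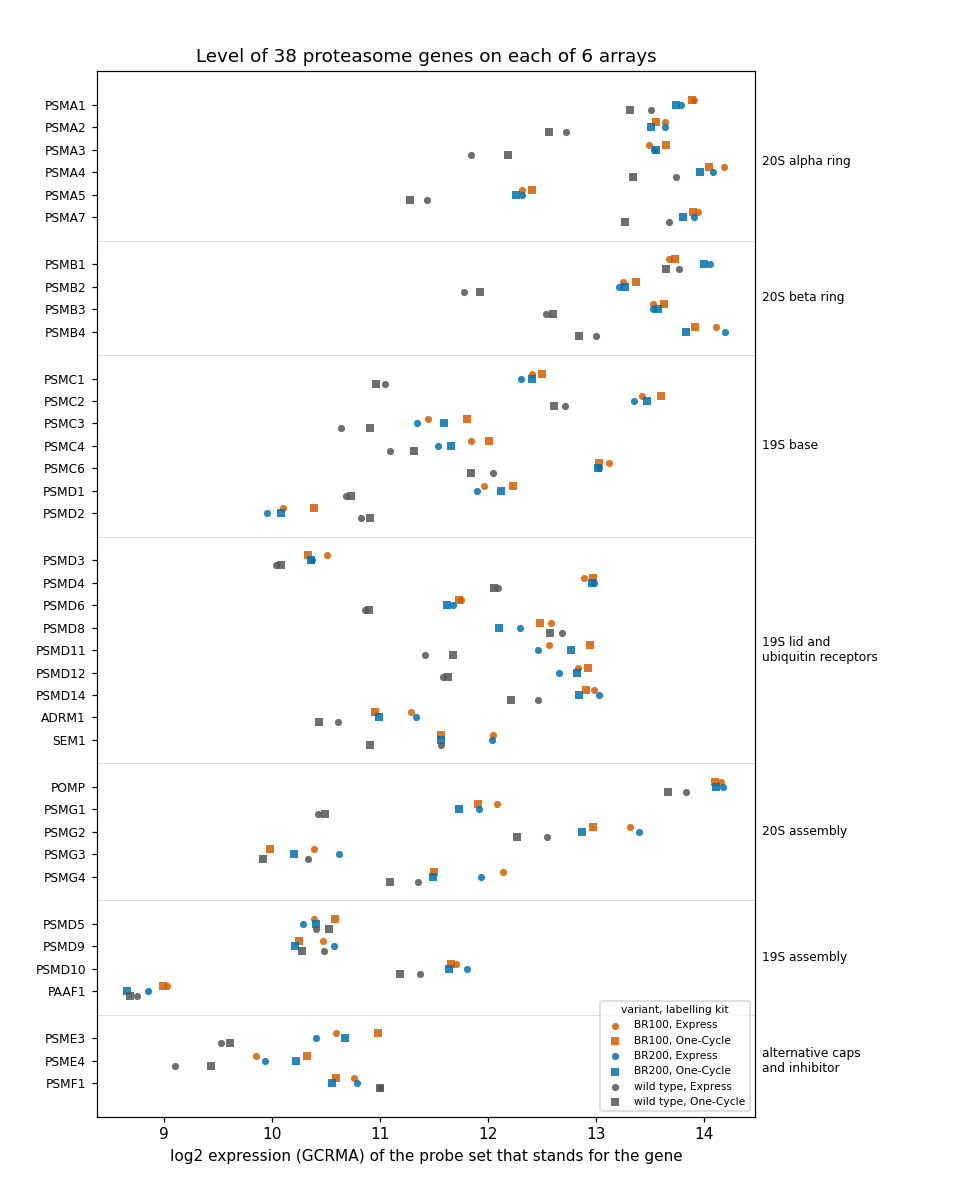
Log2 expression (horizontal axis) of the probe set that stands for each of 38 proteasome genes, 1 row per gene grouped by subcomplex, with a point per array; colours mark the variant and symbols the labelling kit. Orange BR100 and blue BR200 points lie to the right of the grey wild type points in most rows, PSMD2 and PSMF1 show the opposite order, and PSMD5 and PSMD9 show mixed points; levels are to be read within a row only.

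The promoters were searched for the letters of a pair of motifs named in work on proteasome genes, since most members moved together. RefSeq promoter windows of GRCh38.p14, running from 250 bases before the start site to 50 after it, were matched by symbol for 34 of the 38 genes. TGACNNNGC, the core of the antioxidant response element that NFE2L1 and related factors bind, was found on either strand in 13 of the 34 (38.2%), against 16.1% of 27305 genes. CCAAT, the box that the NF-Y factor binds, was found on either strand in 18 (52.9%), against 39.7% of genes. A gene counted if any of its windows matched, and the 34 genes had 42 windows. The background held every gene with a window, expressed here or not. It was not matched for windows per gene or base composition, so the shares describe and do not test enrichment. Both motifs were present in ADRM1, PSMA4, PSMB3, PSMD3, PSMG1 and SEM1. The sequences below show 6 members that rose in both clones and 2 that were called in neither, PSMD5 and PSMD9, all with a core match upstream of the start site. The windows lie at chr15:78540635-78540693 (PSMA4, plus strand), chr17:38752612-38752670 (PSMB3, plus), chr17:39980745-39980803 (PSMD3, plus) and chr17:67366709-67366767 (PSMD12, minus). The other windows lie at chr20:62302734-62302792 (ADRM1, plus), chr21:39183601-39183659 (PSMG1, minus), chr9:120843023-120843081 (PSMD5, minus) and chr12:121888663-121888721 (PSMD9, plus). Each is written 5′ to 3′ on the gene's strand, with the core match in capitals.
PSMA4: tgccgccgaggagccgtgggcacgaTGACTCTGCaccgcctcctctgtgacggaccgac
PSMB3: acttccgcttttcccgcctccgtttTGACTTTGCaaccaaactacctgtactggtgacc
PSMD3: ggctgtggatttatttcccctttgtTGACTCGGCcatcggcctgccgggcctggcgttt
PSMD12: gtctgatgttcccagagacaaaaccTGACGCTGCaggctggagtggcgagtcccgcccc
ADRM1: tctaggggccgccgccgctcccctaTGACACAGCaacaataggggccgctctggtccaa
PSMG1: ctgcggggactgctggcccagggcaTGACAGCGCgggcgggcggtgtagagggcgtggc
PSMD5: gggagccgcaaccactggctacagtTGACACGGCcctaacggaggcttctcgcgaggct
PSMD9: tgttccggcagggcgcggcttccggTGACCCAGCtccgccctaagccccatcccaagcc

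Genes with and without a core match were both mostly higher. Of the 13 genes with a core match, 11 were called higher in both clones, and so were 17 of the 21 without one. The share of all genes called higher in both was not counted. The median log2 change of genes with the core was 0.72 in BR100 and 0.64 in BR200, and that of genes without it was 0.85 and 0.75. PSMA3, PSMB2 and PSMC1, whose changes are given below, had no core match in this window, while PSMD5 and PSMD9 did. Other genes went the other way. PSMG1, PSMD1 and PSMD12, which rose in both clones, had a match, and PSMD2, PSMD8 and PSMF1, which rose in neither, had none. A match describes letters in a window and is no evidence of a bound site.

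The alpha subunits form the outer rings of the core and hold the gate through which substrates enter. All 6 measured alpha genes rose in both clones, with a median log2 change of 0.76 in BR100 and 0.71 in BR200. PSMA3, the member that rose most, read 13.49 and 13.64 in BR100, 13.53 and 13.55 in BR200, and 11.85 and 12.19 in wild type, with the Express array first in each pair. The 4 arrays of the resistant clones thus spanned a narrower range than the 2 wild type arrays and did not overlap them. PSMA3 was 2.93-fold higher in BR100 (log2 change 1.55, SE 0.101, adjusted p = 0.000445 in limma) and 2.88-fold higher in BR200 (1.52, adjusted p = 0.000517). PSMA5 and PSMA2 changed by 1.01 and 0.95 in BR100 and by 0.93 each in BR200. The tested probe sets of PSMA5 were called in opposite directions, as given below. PSMA4, PSMA1 and PSMA7 changed least, by 0.58, 0.49 and 0.45 in BR100 and by 0.48, 0.35 and 0.39 in BR200.

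The alpha gene changes below 0.6 were less stable than the larger ones. PSMA7 lost its BR100 call without any of 5 arrays in turn (all but the wild type Express array), with adjusted p up to 0.139, and its BR200 call likewise, with adjusted p up to 0.195. Without the wild type One-Cycle array its log2 change was 0.28 in BR100 and 0.22 in BR200, against 0.45 and 0.39 with all arrays. Leaving out an array of the other clone ended the call but left the change itself at 0.45 and 0.39. PSMA1 lost its BR200 call without either BR200 array or the wild type One-Cycle array (adjusted p up to 0.109), and its BR100 call without the BR100 One-Cycle array (0.0507). PSMA4 lost its calls without the One-Cycle array of the clone concerned, at adjusted p of 0.0548 in BR100 and 0.0888 in BR200. PSMA7 and PSMA1 are both represented by a probe set marked as cross-hybridizing, one whose probes can match other transcripts. PSMA6, an alpha subunit with no probe set of its own, shares its probe sets with PRORP and was not tested. One of these read 13.80 and 13.80 in BR100, 13.96 and 13.89 in BR200, and 12.92 and 12.71 in wild type. The other read 9.48 and 9.48 in BR100, 9.33 and 9.23 in BR200, and 6.97 and 6.71 in wild type, so the resistant arrays were higher on both.

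The measured beta genes encode subunits of the inner rings without a protease site. PSMB2, PSMB3 and PSMB4 rose in both clones, and PSMB1 rose in BR200 alone. PSMB2 read 13.25 and 13.37 in BR100, 13.21 and 13.26 in BR200, and 11.78 and 11.93 in wild type. The groups were more than 1 log2 unit apart with each kit, a 2.75-fold rise in BR100 (log2 change 1.46, SE 0.0682, adjusted p = 0.000224) and a 2.61-fold rise in BR200 (1.38, adjusted p = 0.000278). PSMB4 was 2.13-fold higher in BR100 and in BR200, and PSMB3 2.01-fold and 1.97-fold. The other tested probe sets of PSMB2 were not called in either clone, as given below.

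PSMB1 was the exception among the core subunits. It read 13.68 and 13.73 in BR100, 14.06 and 13.99 in BR200, and 13.76 and 13.65 in wild type. BR100 arrays overlapped wild type and both BR200 arrays lay above the other 4. The log2 change was −0.00 in BR100 (SE 0.0759, adjusted p = 1) and 0.32 in BR200 (adjusted p = 0.020), and the BR200 call was lost without either BR200 array or the wild type One-Cycle array, with adjusted p up to 0.116. The direct difference between the clones was 0.32, with a 95% interval of 0.12 to 0.53, and did not pass the adjusted test (adjusted p = 0.0714). A second PSMB1 probe set was at 0.13 in BR100 (not called, though both BR100 arrays lay above wild type) and 0.42 in BR200 (called).

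The base of the 19S regulator holds the ATPases PSMC1 to PSMC6, which unfold substrates, and the large scaffold subunits PSMD1 and PSMD2. All 5 measured ATPase genes and PSMD1 rose in both clones, and PSMD2 fell in both. The median of the 7 base genes was 0.85 in BR100 and 0.75 in BR200. PSMC1 read 12.40 and 12.50 in BR100, 12.31 and 12.41 in BR200, and 11.05 and 10.96 in wild type. Resistant and wild type arrays were well separated, a 2.73-fold rise in BR100 (log2 change 1.45, SE 0.0818, adjusted p = 0.000327) and a 2.55-fold rise in BR200 (1.35, adjusted p = 0.000422). PSMD1 changed by 1.38 and 1.30 in BR100 and BR200, and PSMC6 by 1.13 and 1.08. PSMC2 and PSMC3 changed by 0.85 each in BR100 and by 0.75 and 0.70 in BR200. The other tested probe sets of PSMC2 were not called in either clone, as given below.

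PSMC4, a further ATPase, read 11.84 and 12.01 in BR100, 11.53 and 11.66 in BR200, and 11.10 and 11.32 in wild type. The BR200 arrays thus lay between those of the other variants. The change was 0.72 in BR100 (adjusted p = 0.00115) and 0.39 in BR200 (SE 0.0675, adjusted p = 0.00758, and 0.0645 without the BR200 Express array).

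PSMD2, a docking platform for proteins that bring ubiquitinated substrates, fell in both clones. It read 10.11 and 10.39 in BR100, 9.95 and 10.09 in BR200, and 10.82 and 10.90 in wild type. Every resistant array lay below both wild type arrays, opposite to the other base genes. The gene was 1.53-fold lower in BR100 (log2 change −0.61, SE 0.0809, adjusted p = 0.00308) and 1.79-fold lower in BR200 (−0.84, adjusted p = 0.00132). Its partner scaffold PSMD1 was higher in all 4 resistant arrays.

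The lid and the ubiquitin receptors recognise the ubiquitin chain and cut it off. Of these 9 genes, 8 rose in BR100 and 8 rose and 1 fell in BR200, with medians of 0.60 and 0.64. PSMD12, a lid scaffold subunit, read 12.83 and 12.93 in BR100, 12.66 and 12.83 in BR200, and 11.58 and 11.63 in wild type. Resistant arrays exceeded wild type by more than 1 log2 unit with each kit, a 2.41-fold rise in BR100 (log2 change 1.27, SE 0.0699, adjusted p = 0.000309) and a 2.20-fold rise in BR200 (1.13, adjusted p = 0.000439). PSMD11, a scaffold subunit next to it in the lid, changed by 1.20 in BR100 and 1.07 in BR200. The other tested probe set of PSMD12 was not called in either clone, and that of PSMD11 was not called in BR100, as given below.

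The ubiquitin receptors PSMD4 and ADRM1 changed by 0.85 and 0.60 in BR100 and by 0.89 and 0.64 in BR200. Without the block for kit the adjusted p of ADRM1 was 0.0601 in BR100 and 0.0521 in BR200. PSMD14, the deubiquitinase of the lid, changed by 0.60 in each clone. The lid scaffold subunits PSMD6 and PSMD3 changed by 0.86 and 0.36 in BR100 and by 0.76 and 0.31 in BR200. PSMD3 lost its BR100 call without the BR100 or wild type Express array (adjusted p up to 0.109). Its BR200 call was lost without any BR200 or wild type array (adjusted p up to 0.158).

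SEM1, a small acidic lid subunit, was called in both clones although its arrays overlapped. It read 12.04 and 11.57 in BR100, 12.04 and 11.57 in BR200, and 11.57 and 10.91 in wild type. Each resistant array was higher than the wild type array of the same kit, and the One-Cycle arrays of the clones were level with the Express array of wild type. Its changes of 0.57 and 0.56 rest on the block for kit, without which the adjusted p was 0.218 in BR100 and 0.225 in BR200.

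PSMD8, another lid subunit, fell in BR200 alone. It read 12.58 and 12.49 in BR100, 12.29 and 12.10 in BR200, and 12.68 and 12.57 in wild type. Only the BR200 arrays lay below all others. The log2 change was −0.09 in BR100 (SE 0.0684, adjusted p = 0.281) and −0.43 in BR200 (adjusted p = 0.00578), a 1.35-fold lower level. Without the BR200 One-Cycle array the adjusted p in BR200 was 0.053.

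The 20S assembly factors are chaperones that build the alpha ring and guide the beta subunits onto it. PSMG1, PSMG2, PSMG4 and POMP rose in both clones, and PSMG3 rose in BR200 alone, with medians over the 5 genes of 0.60 and 0.49. PSMG1, which works as a pair with PSMG2, read 12.08 and 11.91 in BR100, 11.92 and 11.73 in BR200, and 10.43 and 10.50 in wild type. No array of a clone came within 1 log2 unit of wild type, a 2.89-fold rise in BR100 (log2 change 1.53, SE 0.0943, adjusted p = 0.0004) and a 2.57-fold rise in BR200 (1.36, adjusted p = 0.000577). PSMG2 changed by 0.74 and 0.73 in BR100 and BR200 (adjusted p = 0.0648 and 0.0707 without the block for kit), and POMP, which helps the beta subunits assemble and the rings join, by 0.38 and 0.39.

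PSMG3 and PSMG4 also work as a pair, and their calls rest on the block for kit too. PSMG3 read 10.39 and 9.98 in BR100, 10.62 and 10.21 in BR200, and 10.34 and 9.92 in wild type. The kits differed by more than the variants did, and within each kit BR200 was the highest. The change was 0.06 in BR100 (SE 0.0637, adjusted p = 0.473) and 0.28 in BR200 (adjusted p = 0.0169, and 0.419 without the block for kit). Leaving out any BR200 or wild type array ended the BR200 call (adjusted p up to 0.101). PSMG4 changed by 0.60 in BR100 and 0.49 in BR200. Without the block for kit its adjusted p was 0.154 and 0.233. The BR100 call of PSMG4 was lost without the BR100 Express array (0.0501), and its BR200 call without either BR200 array or the wild type Express array (up to 0.0954). POMP lost its BR100 call without the BR100 One-Cycle array (0.0695) and its BR200 call without either BR200 array (up to 0.0677).

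The 19S assembly chaperones, which hold ATPases of the base before it is complete, changed least. Their median was 0.16 in BR100 and 0.02 in BR200. PSMD10, known as gankyrin, was the member that rose in both clones. It read 11.71 and 11.66 in BR100, 11.81 and 11.64 in BR200, and 11.37 and 11.19 in wild type. Resistant and wild type arrays did not overlap, at a log2 change of 0.40 in BR100 (SE 0.0729, adjusted p = 0.00842) and 0.44 in BR200 (adjusted p = 0.00663). PAAF1 read 9.03 and 9.00 in BR100, 8.85 and 8.66 in BR200, and 8.75 and 8.69 in wild type. Only the BR100 arrays stood above all others, with a change of 0.30 (SE 0.0754, adjusted p = 0.0236) against 0.04 in BR200 (adjusted p = 0.685). That call was lost without any BR100 or wild type array (adjusted p up to 0.143). The calls of PSMD10 were lost without the BR100 One-Cycle array (0.0644) and without the BR200 Express array (0.0569).

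PSMD5 and PSMD9, the other 19S chaperones, were not called in either clone. PSMD5 read 10.39 and 10.58 in BR100, 10.29 and 10.41 in BR200, and 10.41 and 10.53 in wild type. PSMD9 read 10.47 and 10.25 in BR100, 10.58 and 10.21 in BR200, and 10.49 and 10.28 in wild type. The arrays of all 3 variants overlapped for both genes. The 95% interval of the change was −0.16 to 0.20 for PSMD5 in BR100 and −0.30 to 0.06 in BR200. For PSMD9 it was −0.23 to 0.18 in BR100 and −0.20 to 0.22 in BR200, so rises of the size seen for PSMA3 lay outside these intervals.

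PSME3 and PSME4 encode caps that open the core without ATP, and PSMF1 a protein first described as a proteasome inhibitor. Both cap genes rose in both clones and PSMF1 fell in both. PSME3 read 10.59 and 10.99 in BR100, 10.41 and 10.68 in BR200, and 9.53 and 9.62 in wild type. The clones were higher with each kit, 2.32-fold in BR100 (log2 change 1.22, SE 0.0981, adjusted p = 0.00075) and 1.96-fold in BR200 (0.97, adjusted p = 0.00152). The probe set that stands for PSME3 is marked as cross-hybridizing, and not all of its 4 tested probe sets were called, as given below. PSME4 changed by 0.82 and 0.81 in BR100 and BR200, a rise that rests on 1 of 3 tested probe sets. With its probe sets averaged the change was 0.34 in BR100 (adjusted p = 0.0927) and 0.30 in BR200 (adjusted p = 0.129).

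PSMF1 read 10.77 and 10.60 in BR100, 10.79 and 10.55 in BR200, and 11.00 and 11.00 in wild type. Every resistant array was lower than both wild type arrays. The change was −0.32 in BR100 (SE 0.0868, adjusted p = 0.0297) and −0.33 in BR200 (adjusted p = 0.0276). The call was lost without any of 5 arrays in turn, all but the wild type Express array. Leaving out an array of the other clone ended the call but left the change itself at −0.32 and −0.33.

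**Figure D2:**
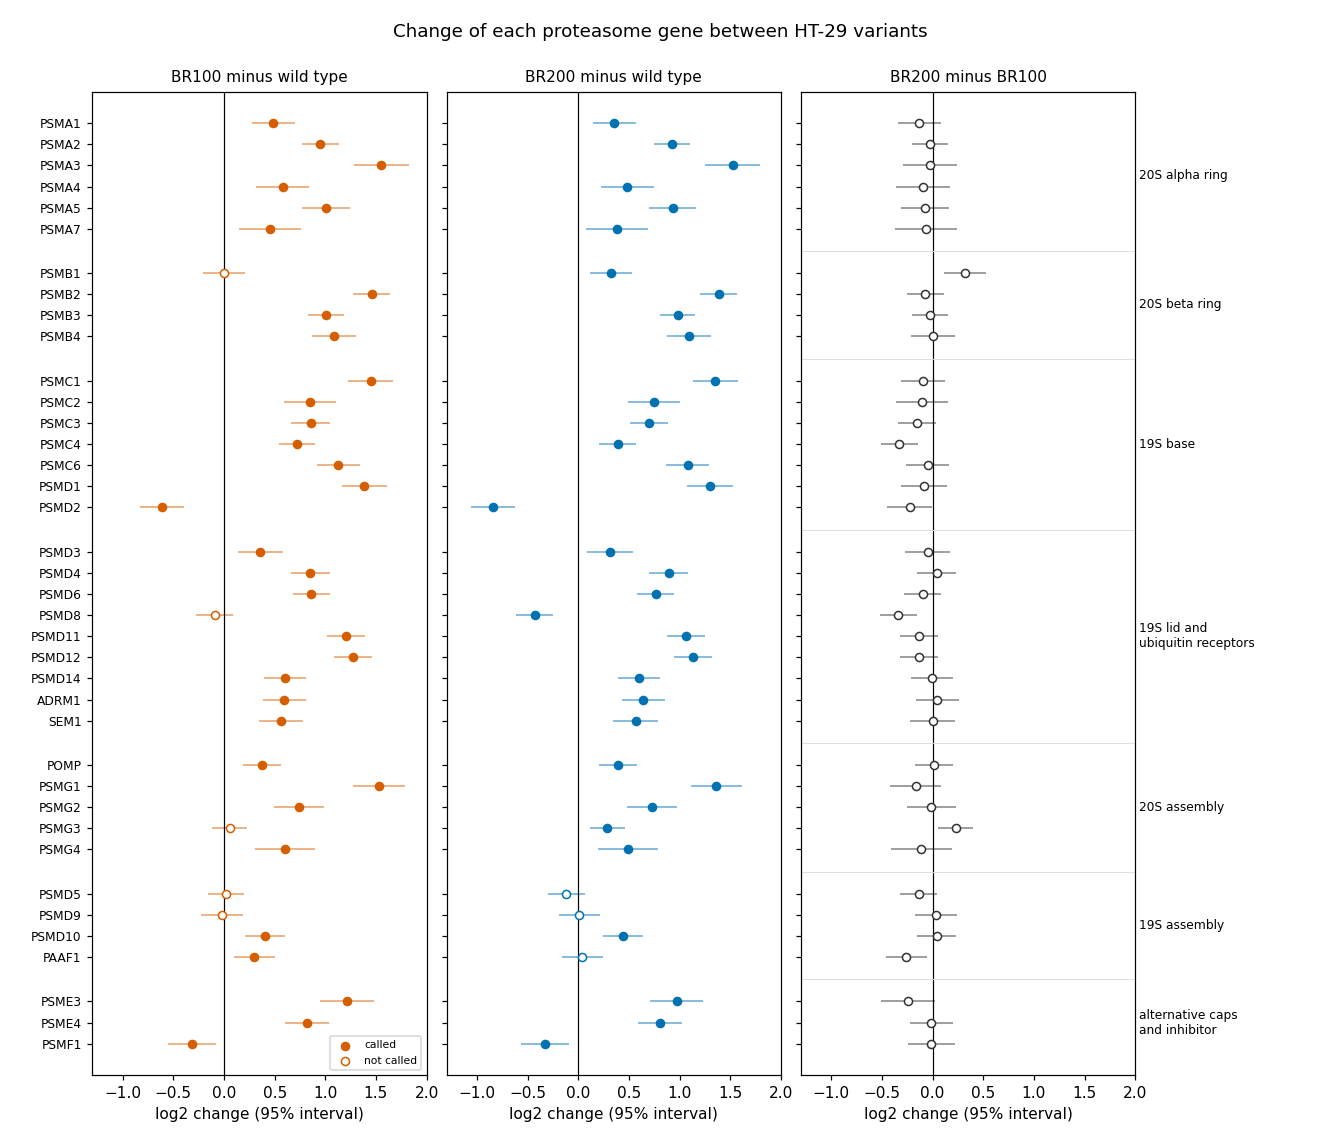
Log2 change (horizontal axis, points) with 95% interval (lines) of each of 38 genes, in rows grouped by subcomplex, for BR100 minus wild type, BR200 minus wild type and BR200 minus BR100; filled points passed the adjusted test. The first panels hold 31 and 32 filled points right of 0, and the last panel holds none.

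The clones differed little from each other over these genes. In BR200 against BR100, none of the 38 was called in either direction by limma, where 6.39% of all genes were higher and 4.23% lower. At an unadjusted p under 0.05, 2 were higher and 4 lower. The share of all genes at that unadjusted threshold was not counted, so these 2 counts cannot be read as many or few. The log2 differences ran from −0.34 to 0.32, with a median of −0.07, and 30 of the 38 lay below 0, as did 52.8% of all genes. The 95% intervals reached 0.17 to 0.31 to either side, and no bound went beyond −0.52 or 0.53. Differences of 1 log2 unit between the clones therefore lay outside the interval of each gene.

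The genes that differed most were PSMD8, PSMC4, PSMB1, PAAF1 and PSME3. PSMD8 and PSMC4 were lower in BR200, by −0.34 (95% interval −0.52 to −0.15, adjusted p = 0.0537) and −0.33 (−0.51 to −0.15, adjusted p = 0.0543). PAAF1 was at −0.26 (adjusted p = 0.105), PSME3 at −0.24 (adjusted p = 0.183) and PSMB1 at 0.32. Some of these passed the threshold under other settings: PSMD8 was called under 4 alternatives and PSMC4 under 3. PSMG3, at 0.23 (adjusted p = 0.0982), was called under 2, and PSMB1 under 1.

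Individual probe sets, which read different stretches of a transcript, agreed for many genes and not for others. The annotation gave 78 probe sets that name a member alone, of which 64 were tested and 14 stayed below the filter. Of the 64, 43 rose in BR100 and 4 fell, against 32.0% and 30.9% of all 19055 probe sets tested. In BR200, 44 rose and 4 fell, against 29.7% and 29.8%. BR200 against BR100 gave 2 higher and 0 lower by limma, against 3.96% and 1.74%. At an unadjusted p under 0.05 it gave 11, and the share of all probe sets at that threshold was not counted. Among the 17 genes with several tested probe sets, all probe sets had the same call for 9 in BR100 and for 8 in BR200.

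Every tested probe set rose in both clones for PSMA1, PSMA2, PSMB4, PSMD1, PSMD4 and PSMD10. PSMD1 had 1.38 and 1.59 in BR100 and 1.30 and 1.40 in BR200 from its 2 probe sets. PSMD4 had 0.85, 0.89 and 0.87 in BR100 from its 3, and 0.89, 0.87 and 0.91 in BR200. The probe sets of PSMB4 gave 1.09, 1.37 and 1.68 in BR100 and 1.09, 1.39 and 1.08 in BR200, and the last of these, 228204_at, read lower with the One-Cycle kit in every variant, by −1.13 in BR100, −1.73 in BR200 and −1.65 in wild type. PSMA7 and POMP each had 1 probe set called in both clones and 1 called in BR100 alone, all of them above 0.

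PSMA5 had probe sets called in opposite directions. Probe set 201274_at, which stands for the gene, read 12.32 and 12.41 in BR100, 12.31 and 12.26 in BR200, and 11.43 and 11.28 in wild type. Probe set 230300_at read 6.04 and 5.90 in BR100, 7.06 and 6.71 in BR200, and 7.99 and 8.03 in wild type. The first was higher and the second lower in all 4 resistant arrays, at log2 changes of 1.01 and −2.04 in BR100 and of 0.93 and −1.13 in BR200. The second also differed between the clones, by 0.91 (BR200 minus BR100, SE 0.119, adjusted p = 0.0386). Averaging the PSMA5 probe sets turned the change to −0.52 in BR100 (adjusted p = 0.00357) and to −0.10 in BR200 (not called).

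PSMD11 had a probe set that separated the clones. Probe set 208776_at read 8.39 and 8.45 in BR100, 9.00 and 9.00 in BR200, and 8.59 and 8.48 in wild type. The BR100 arrays lay below wild type and the BR200 arrays above it. The change was −0.12 in BR100 (not called) and 0.47 in BR200 (adjusted p = 0.0114), and the clones differed by 0.58 (BR200 minus BR100, SE 0.0842, adjusted p = 0.0439). Probe set 208777_s_at, which stands for PSMD11, gave 1.20 and 1.07.

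Several other large rises rest on 1 of several probe sets. The second probe set of PSMD12 read 10.89 and 10.57 in BR100, 10.92 and 10.53 in BR200, and 10.99 and 10.79 in wild type. These levels overlapped, with a change of −0.16 in each clone (not called) against 1.27 and 1.13 from 202352_s_at, which stands for the gene. The other probe sets of PSMC2 gave −0.21 and −0.12 in BR100 and −0.09 and −0.01 in BR200, and those of PSMB2 gave 0.37 and 0.34 in BR100 and 0.32 and 0.15 in BR200, none called. With probe sets averaged, PSMC2 stood at 0.17 in BR100 (adjusted p = 0.0571). Of the 38 genes, 19 are represented by a probe set that the array's naming marks as shared between transcripts (16) or cross-hybridizing (3). Without such probe sets, 25 genes could be tested, and 18 of them rose in BR100 and 18 in BR200. The 18 in BR100 include PSMF1, which was called lower in the main comparison. The share of all genes called with this choice of probe sets was not counted.

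PSME4 and PSMF1 also gave mixed readings. Probe set 212219_at, which stands for PSME4, read 9.86 and 10.33 in BR100, 9.94 and 10.22 in BR200, and 9.11 and 9.44 in wild type. Probe set 212222_at of PSME4 read 8.72 and 8.98 in BR100, 9.05 and 9.06 in BR200, and 9.46 and 9.30 in wild type. It fell in BR100 by −0.53 (adjusted p = 0.023) and was at −0.32 in BR200 (adjusted p = 0.0914), where 212219_at rose in both. The remaining one, 212220_at, was at 0.73 in BR100 and 0.41 in BR200 (neither called). The other probe sets of PSMF1 were at 0.29 and 0.29 in BR100 and at 0.24 and −0.20 in BR200, none called, so the fall of PSMF1 rests on 1 of 3. Without shared probe sets PSMF1 was called higher in BR100, at 0.29 (adjusted p = 0.0432), and was at −0.20 in BR200 (adjusted p = 0.112). Probe set 209852_x_at of PSME3 differed between the kits by 2.48 (One-Cycle minus Express) and was not called in either clone, while 209853_s_at of that gene rose by 1.12 in BR100 and 0.82 in BR200. Probe set 200988_s_at of PSME3 was at 0.50 in BR100 and 0.05 in BR200, neither called.

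**Figure D3:**
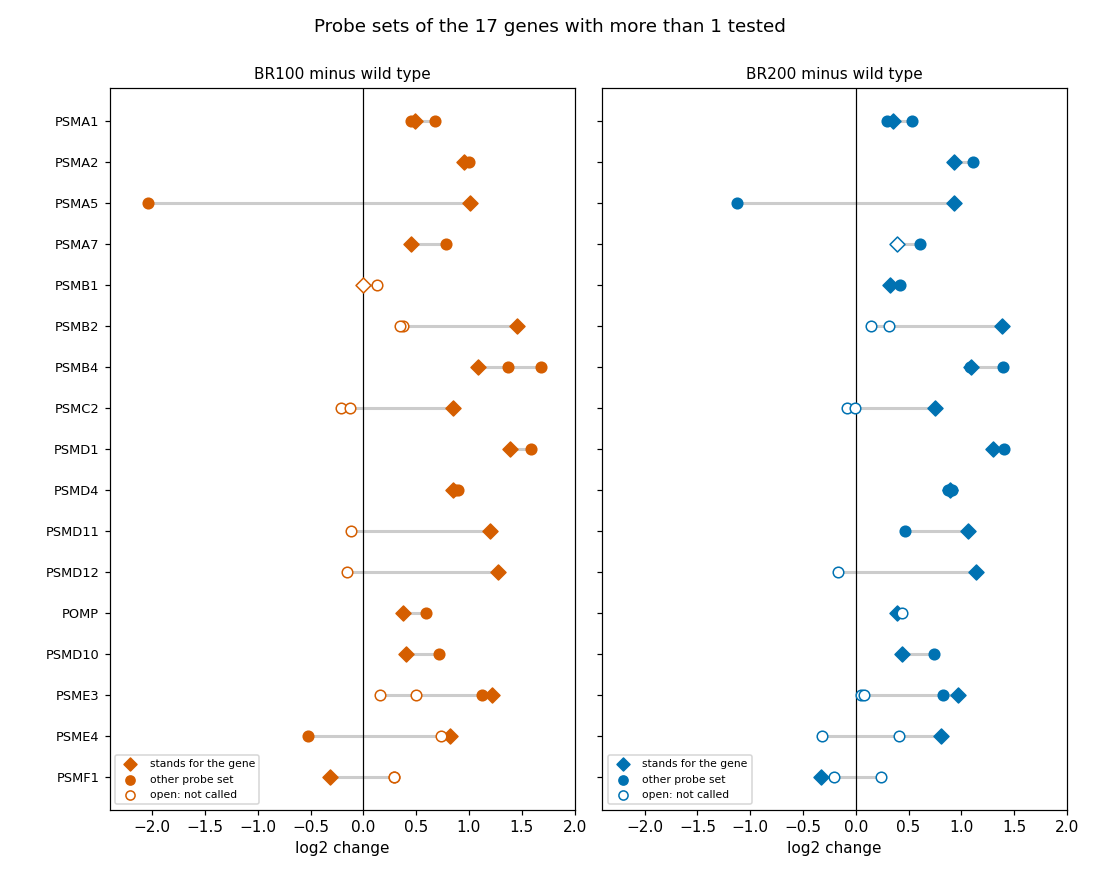
Log2 change (horizontal axis) of every tested probe set of the 17 genes with more than 1, for BR100 minus wild type and BR200 minus wild type; diamonds stand for the gene elsewhere, circles are its other probe sets, and open symbols did not pass the adjusted test over all probe sets. The points of PSMA5 lie furthest apart, at 1.01 and −2.04 in BR100, and those of PSMD4 nearly coincide.

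The changes of the genes were set beside those of their neighbours on the chromosome. For each member the nearest tested genes were taken, 10 on either side in RefSeq order (12 in all for PSMB1). PSMD2 on chromosome 3 stood among genes that were nearly all lower: of its 20 neighbours, 18 fell and 0 rose in BR100, and 18 fell and 0 rose in BR200. Their median log2 change was −1.20 in BR100 and −1.38 in BR200, below that of PSMD2 itself. The median over the other tested genes of chromosome 3 was −0.09 and −0.07.

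Chromosome 14 carries PSMA3, PSMC1 and PSMC6, and its other 344 tested genes had a median of 0.61 in BR100 and 0.65 in BR200. Their neighbours were higher too, at medians of 0.39, 0.76 and 0.61 in BR100 and of 0.33, 0.73 and 0.74 in BR200. Each of the 3 genes changed by more than its neighbours' median in both clones. Without them, 28 of 35 genes rose and 2 fell in BR100 and 29 rose and 3 fell in BR200, at medians of 0.60 and 0.60. Of all genes tested, those of chromosome 14 included, 36.7% rose and 31.8% fell in BR100, and 35.4% and 31.2% in BR200. Shares of all genes without chromosome 14 were not counted.

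Several members rose among neighbours that were lower at the median. The neighbours of PSMA1 were lower, at a median of −0.50 in BR100 and −0.69 in BR200, where PSMA1 rose. The neighbours of SEM1 were at −0.34 in each clone, and those of PSMG1 at −0.26 in BR100 and −0.15 in BR200. PSMD3, PSMD14 and PSME4 likewise rose among neighbours at medians of −0.28, −0.20 and −0.20 in BR100 and of −0.19, −0.30 and −0.27 in BR200. PSMG4 stood among higher genes on chromosome 6, with neighbour medians of 0.62 and 0.81. PSMD8 had neighbours at −0.14 in BR100 and −0.29 in BR200. The part of the surrounding genes' shift in the values of PSMD2 and of the chromosome 14 genes was not tested.

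**Figure D4:**
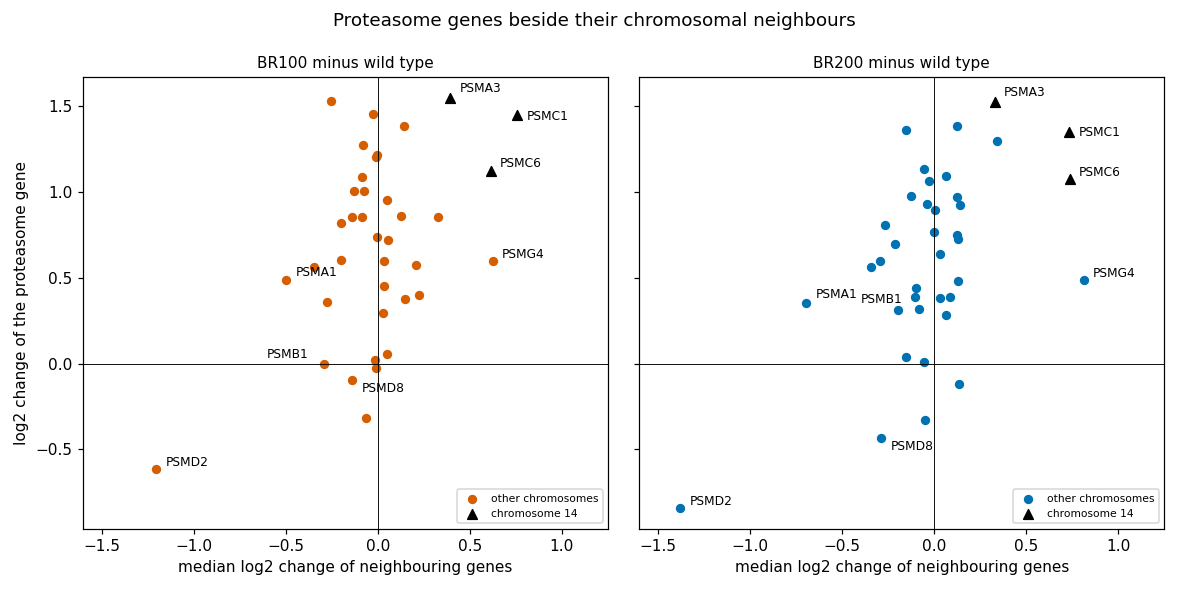
Log2 change of each proteasome gene (vertical axis) against the median log2 change of its nearest tested neighbours (horizontal axis), for BR100 minus wild type and BR200 minus wild type; triangles mark chromosome 14. Most genes sit high above neighbours with medians near 0, PSMD2 is at the lower left with neighbours at −1.20 and −1.38, and the chromosome 14 genes lie to the right.

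The rest of the pathway did not move as one. Of the catalytic and immunoproteasome subunits with the 11S cap, 5 of 7 tested genes rose and 1 fell in BR100, against 36.7% and 31.8% of all genes, and 7 rose in BR200, against 35.4%. The catalytic subunits PSMB5, PSMB6 and PSMB7 rose in both clones, as most of the 38 did. They changed by 1.69, 1.19 and 0.69 in BR100 and by 1.69, 1.23 and 0.81 in BR200. The 11S cap gene PSME1 changed by 0.81 and 0.99, and none of these genes was called between the clones. PSMB9, PSMB8 and PSMB10, the immunoproteasome subunits, were higher in BR200 than in BR100 by 2.30, 1.62 and 0.70 (all called), where none of the 38 genes was called. Of the remaining subunits, PSMA6, PSMC5, PSMD7 and PSMD13 lacked a probe set naming them alone and PSMA8 was below the filter, so none was tested.

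Genes for proteins that bind or serve the proteasome were counted next. Of 14 tested, 5 rose and 4 fell in BR100, where 36.7% of all genes rose and 31.8% fell, so these shares were near those of all genes. In BR200, 3 rose and 3 fell, against 35.4% and 31.2%. The deubiquitinases UCHL5 and USP14 changed by 0.84 and 0.61 in BR100 and by 0.56 and 0.57 in BR200, and the ubiquitin ligase UBE3A by −1.01 and −0.87. NGLY1, the glycanase that helps activate NFE2L1, changed by 0.60 and 0.29.

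Of 6 tested transcription factors linked to these genes, 1 rose and 3 fell in BR100, against 36.7% and 31.8% of all genes. In BR200, 1 rose and 4 fell, against 35.4% and 31.2%. NFE2L1 read 9.97 and 10.19 in BR100, 10.03 and 10.07 in BR200, and 11.85 and 11.95 in wild type. All 4 resistant arrays were lower, by −1.82 in BR100 and −1.85 in BR200. MAFF, a small MAF protein that can pair with such factors, changed by −2.14 and −1.94, and NFE2L2 by −0.67 and −0.53. NFYA, a subunit of NF-Y, rose by 0.36 and 0.33. The level of a factor's RNA does not give its activity, which was not measured here.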

How the data were processed

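The authors deposited 1 log2 value for each probe set of each of the 6 arrays. GCRMA is named in the submitters' processing notes, with its version and other steps not given in the sources used here. Of 54675 probe sets, 41097 named 1 gene in the platform annotation, 1801 several and 11777 none. Each gene was represented by the probe set of highest mean among those naming it alone, and genes or probe sets were kept where at least 2 of 6 arrays reached log2 4. Variants were compared in R 4.3.3 with limma 3.58.1 (lmFit, eBayes, two-sided) on all 6 arrays together, with variant as the term of interest and the labelling kit as a block, 2 residual degrees of freedom and 2.33 prior ones. The fit was tested on simulated data. Kit deviations from the variant means, over genes, correlated at 0.76, 0.78 and 0.84 between variants. Calls were made at 0.05 after Benjamini-Hochberg adjustment across the 10370 genes or 19055 probe sets kept. Array values are given for the largest called rise and fall per subcomplex, for genes called in 1 clone, for the 5 largest differences between clones and for opposed probe sets; PSMD5, PSMD9 and SEM1 were added after their values were seen, as was the second probe set of PSMD12. The members and lists were chosen with earlier results of these data known. Alternatives covered the block, filter, scaling, variance prior, each array left out, and the choice of probe set. The number of arrays and signal over background limit the precision.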

Additional observations from a re-analysis of the deposited data

Results flagged for a closer look

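A pair of probe sets stood out because the resistant clones differed from each other by the direct test. Probe set 230300_at of PSMA5 was higher in BR200 than in BR100 by 0.9123 on the log2 scale. It read 7.06 and 6.71 in BR200 and 6.04 and 5.90 in BR100, both below wild type at 7.99 and 8.03. Probe set 208776_at of PSMD11 was higher in BR200 than in BR100 by 0.5849, and its BR200 arrays lay above both wild type arrays while its BR100 arrays lay below them. For the probe set that stands for each gene, BR200 minus BR100 was −0.08 for PSMA5 (adjusted p = 0.651 in limma) and −0.14 for PSMD11 (adjusted p = 0.337). Both calls were lost in each fit that left out 1 array, without the block for kit and without the filter.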

How the results depend on the processing

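Against wild type the counts of genes that rose stayed within 1.5 times under most alternatives. Shares of all genes were counted for the main comparison alone, so the counts below cover the members only. Leaving out 1 array at a time gave 25 to 30 higher and 1 to 2 lower in BR100, 23 to 31 higher and 1 to 3 lower in BR200, and 0 to 0 either way in BR200 against BR100. For probe sets it gave 34 to 41 higher and 2 to 3 lower in BR100, 30 to 40 and 2 to 4 in BR200, and 0 to 0 higher in BR200 against BR100. The lower calls of BR100 were 1 in each such fit but that without the wild type Express array, and those of BR200 were 1 without the BR200 One-Cycle array. With no replicate block, genes higher in BR200 were 21 and genes lower in BR100 were 1; probe sets higher and lower in BR200 were 27 and 2, and the clones differed in 0 probe sets. Without the filter, genes higher in BR100 were 27 and genes lower were 1. PSMA4, PSMA7, PSMD3, PSMG4 and PSMF1 then lost their calls in both clones, PAAF1 in BR100, and PSMA1 and PSMB1 in BR200. PSMG3 gained a call in BR100. Against wild type, 12 probe sets lost their calls in each clone, and probe sets lower in BR100 were 2. BR200 against BR100 gave 1 gene and 0 probe sets higher without the filter. With a variance trend, BR200 against BR100 gave 2 genes higher and 2 lower, and 4 probe sets higher and 2 lower. The stricter filter gave 2 genes lower, median centring 1 gene lower and quantile normalization 1 probe set lower. With probe sets averaged, BR200 against BR100 gave 1 gene higher and 2 lower. The changes of PSMA5 became −0.52 in BR100, −0.10 in BR200 and 0.42 in BR200 against BR100, and that of PSMF1 became 0.067 in BR100 and −0.048 in BR200; PSMC2 in BR100 (0.17) and PSME4 in both clones (0.34 and 0.30) lost their calls. Without cross-hybridizing or shared probe sets, 25 genes were tested, and 18 rose in BR100 with 1 lower, 18 rose in BR200, and BR200 against BR100 gave 1 higher and 1 lower. PSMC2 then stood at −0.21 in BR100 and −0.085 in BR200, PSMD11 at −0.12 in BR100 and 0.58 in BR200 against BR100, and PSMF1 at 0.29 in BR100, a call in the opposite direction. These last changes come from another probe set standing for the gene, and otherwise the cause was not tested. Scaling moved the median of all genes by less than 0.1.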
